A study of Homo sapiens with 12 samples.

Results

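The genes described here are 9 transcription factors of the keratinocyte lineage, TP63, TFAP2A, TFAP2C, GRHL1, GRHL2, GRHL3, OVOL1, ZNF750 and PRDM1. They were found by gene symbol in a table of raw read counts for 58735 genes, in which each symbol named 1 gene, and all 9 were among the 16618 genes with a mean of at least 10 reads per library that entered the tests. Polyadenylated RNA was measured in 2 immortalized human lines grown in the same keratinocyte medium, TIGK from gingiva and HaCaT from skin, either left untreated or exposed for 3 h to H2O2 at 5 mM. The 4 groups of 3 libraries are named TIGK control, TIGK H2O2, HaCaT control and HaCaT H2O2. Each tissue is represented by 1 immortalized line, so tissue of origin and line cannot be told apart.

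In stratified epithelia, p63, the product of TP63, keeps basal cells in the keratinocyte fate, and AP-2 proteins (TFAP2A, TFAP2C) act beside it on many of the same genes. The grainyhead-like proteins (GRHL1, GRHL2, GRHL3) maintain epithelial junctions and the barrier. OVOL1, ZNF750 and PRDM1 (BLIMP1) act as cells leave the basal layer, and ZNF750 is a direct target of p63 that promotes terminal differentiation.

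By the table's coordinates in GRCh38, TP63 (ENSG00000073282) lies at chr3:189631416-189897279, TFAP2A (ENSG00000137203) at chr6:10393186-10419659 and TFAP2C (ENSG00000087510) at chr20:56629302-56639283. The grainyhead-like genes lie apart, GRHL1 (ENSG00000134317) at chr2:9951693-10002277, GRHL2 (ENSG00000083307) at chr8:101492432-101669726 and GRHL3 (ENSG00000158055) at chr1:24319322-24364482. OVOL1 (ENSG00000172818) lies at chr11:65787022-65797219, ZNF750 (ENSG00000141579) at chr17:82829435-82840578 and PRDM1 (ENSG00000057657) at chr6:106086320-106109939. TFAP2A and ZNF750 are on the minus strand and the others on the plus strand.

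Library totals lay between 30426401 and 49034244 counts, and TMM factors between 0.962 and 1.04. The keratinocyte label was checked against 10 markers, all of them detected, whose summed level was 49778 to 57615 CPM (counts per 1e6) in every library. Summed markers of fibroblasts, melanocytes, leukocytes and endothelial cells reached at most 25.8 CPM, for the fibroblast markers in TIGK H2O2. Of 7 fibroblast markers only COL1A2, and of 6 leukocyte markers only MS4A1, was at 0 in every library. The other fibroblast and leukocyte markers had counts in some libraries, and 3 fibroblast markers and 1 leukocyte marker passed the count filter. No melanocyte or endothelial marker was at 0 in every library. The share of counts on mitochondrial genes was 1.39% to 6.26% and was lower after H2O2 in both lines. With the mitochondrial genes left out of the counts and totals, the number of factors called was the same in each of the 5 comparisons. In bulk RNA, fewer cells with a transcript and less of it per cell cannot be told apart. Levels are given as normalized counts, which are TMM-scaled counts at the mean library size, or per gene length as RPKM.

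After H2O2, 3 of the 9 factors, PRDM1, ZNF750 and GRHL3, were upregulated in TIGK and downregulated in HaCaT. GRHL2 and OVOL1 were upregulated in both lines, and TP63 was downregulated in both, more so in HaCaT. TFAP2A, TFAP2C and GRHL1 did not pass the test in either line. PRDM1 gave the widest separation, at 479 ± 62.7 normalized counts in TIGK H2O2 and 45.3 ± 15.4 in HaCaT H2O2 (SD, n = 3 each).

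Promoter sequences are shown for PRDM1 and GRHL3, since both responded in opposite directions in the 2 lines and have entries in the RefSeq promoter table of GRCh38.p14. Matching entries were found for 5 of the 9 factors. For TFAP2C, GRHL2, OVOL1 and ZNF750 no entry was matched. Whether the promoter table holds an entry for GRHL2 was not established. Each sequence is the 250 bases before a RefSeq start on the plus strand, in lower case, with motif matches in capitals. The upstream start of PRDM1 has the window chr6:106086086-106086335, and the second start, inside the gene, has chr6:106098691-106098940. The GRHL3 windows are chr1:24319107-24319356 and, inside the gene, chr1:24322790-24323039.
PRDM1 upstream start: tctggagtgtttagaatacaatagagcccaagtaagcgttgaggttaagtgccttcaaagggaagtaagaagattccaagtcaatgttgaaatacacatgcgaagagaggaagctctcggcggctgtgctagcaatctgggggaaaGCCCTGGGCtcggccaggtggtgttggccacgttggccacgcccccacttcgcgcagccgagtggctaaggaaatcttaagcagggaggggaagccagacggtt
PRDM1 second start: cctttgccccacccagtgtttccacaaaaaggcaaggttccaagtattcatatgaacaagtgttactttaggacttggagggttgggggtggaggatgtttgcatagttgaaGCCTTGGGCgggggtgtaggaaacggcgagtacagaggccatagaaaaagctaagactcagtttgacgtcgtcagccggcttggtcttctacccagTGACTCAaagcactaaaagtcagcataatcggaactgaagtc
GRHL3 upstream start: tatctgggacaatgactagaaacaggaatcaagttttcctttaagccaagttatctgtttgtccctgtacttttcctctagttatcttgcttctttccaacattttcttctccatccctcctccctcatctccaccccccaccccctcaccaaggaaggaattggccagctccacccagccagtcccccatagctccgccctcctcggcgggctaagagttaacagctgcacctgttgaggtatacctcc
GRHL3 second start: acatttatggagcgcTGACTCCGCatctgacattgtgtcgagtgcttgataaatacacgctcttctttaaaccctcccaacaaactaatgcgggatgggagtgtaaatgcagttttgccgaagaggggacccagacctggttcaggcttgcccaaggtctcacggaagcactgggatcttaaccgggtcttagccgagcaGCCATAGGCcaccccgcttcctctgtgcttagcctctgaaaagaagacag

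On both strands, 5 motifs were searched: AP-1 as TGANTCA, the cyclic AMP response element as TGACGTCA, the antioxidant response element as TGACNNNGC, the grainyhead site as AACCGGTT and AP-2 as GCCNNNGGC. The capitals mark 1 AP-1 match, TGACTCA, 42 to 36 bases before the second start of PRDM1, and an AP-2 match in each PRDM1 window. The second GRHL3 window holds an antioxidant response element match and an AP-2 match, and the first holds none. Windows of the same length before all 35116 starts of the table hold the AP-1 letters in 6.57%, the antioxidant response element in 10.9% and the AP-2 letters in 19.8%. The cyclic AMP response element is found in 1.65% and the grainyhead letters in 0.117%. The 4 windows of TP63, TFAP2A and GRHL1 held no match of the 5 motifs. A match is a run of letters, and no measurement of binding was made.

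Per gene length, TP63 had the highest level of the 9 in every group, from 32.4 ± 0.45 RPKM in TIGK H2O2 to 70.1 ± 2.3 in HaCaT control (SD, n = 3). PRDM1 had the lowest in every group, from 0.195 ± 0.066 RPKM in HaCaT H2O2 to 2.07 ± 0.27 in TIGK H2O2. In TIGK control, TFAP2C (11.3 ± 1.2 RPKM), TFAP2A (9.92 ± 0.32) and GRHL2 (9.29 ± 0.70) followed TP63, and the libraries of each neighbouring pair overlapped. In HaCaT control, no neighbours in the order overlapped, and TFAP2C came second at 22.1 ± 1.5 RPKM. After H2O2, GRHL2 was second in TIGK at 15.7 ± 0.58 RPKM and the third in HaCaT at 9.68 ± 0.82, where its libraries overlapped those of TFAP2A. ZNF750 and GRHL1 overlapped in HaCaT H2O2 at 1.11 ± 0.096 and 1.10 ± 0.16 RPKM. In TIGK H2O2, ZNF750 and PRDM1 overlapped, as did GRHL3 and OVOL1 at 6.81 ± 0.43 and 6.46 ± 0.86 RPKM.

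**Figure D1:**
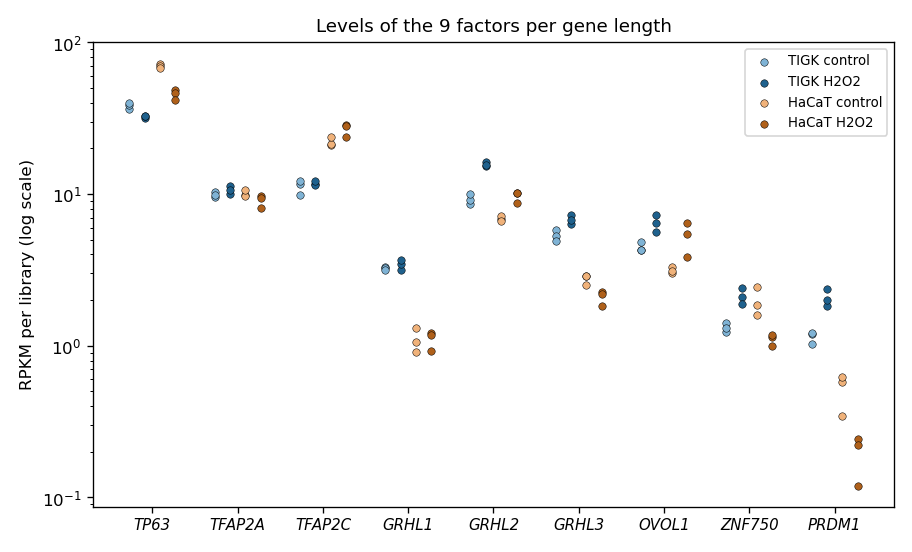
RPKM on a log axis in each library (points) of the 4 groups (colours) for the 9 factors. TP63 is highest in all groups, and PRDM1 is lowest, reaching 0.195 RPKM on average in HaCaT H2O2.

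Within the grainyhead-like family, GRHL2 made up the largest share of the summed RPKM in every group. Its share was 51.9% ± 3.4 in TIGK control and 60.6% ± 0.85 in TIGK H2O2 (SD, n = 3), with no overlap of the libraries. In HaCaT it was 64.3% ± 1.9 and 75.2% ± 0.85, again without overlap, while the GRHL3 share went from 25.6% ± 0.49 to 16.3% ± 0.39. The AP-2 pair was close to even in TIGK, where TFAP2C held 53.1% ± 2.3 of the control sum, and weighted to TFAP2C in HaCaT control, at 68.8% ± 0.60. These shares are given as a description, and no test was run on them.

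The first comparison asked what H2O2 did in TIGK. Of the 9 factors, 6 passed an adjusted p of 0.01 in edgeR's quasi-likelihood test, 5 upward and 1 downward, against 23.2% of all genes tested (10.2% upward, 12.9% downward). Their median log2 fold change was 0.35, beside 0.01 over all genes. The libraries of both groups did not overlap for 6 of the 9, which also held for 51.1% of all genes. The second comparison asked the same of HaCaT, where 6 of 9 passed, 2 upward and 4 downward, against 34.1% of all genes (18.9% upward, 15.2% downward). There the median of the 9 was -0.14, beside 0.04 over all genes, and 6 of 9 did not overlap, against 53.8%.

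**Figure D2:**
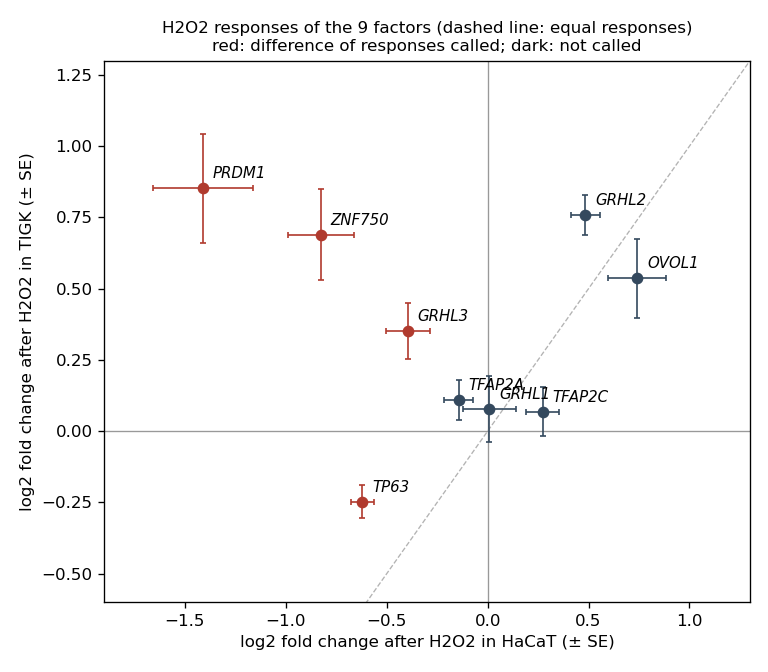
Log2 fold change after H2O2 in HaCaT (horizontal) and TIGK (vertical) for each factor, with standard errors derived from the edgeR F statistic. Of the factors called in both lines, PRDM1, ZNF750 and GRHL3 lie at upper left (up in TIGK, down in HaCaT), and GRHL2 and OVOL1 at upper right. TFAP2A also lies at upper left, and TFAP2C and GRHL1 at upper right, without a call in either line. The 4 red points are those whose responses differed by the test.

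PRDM1 is a zinc finger repressor. Its normalized counts were 278, 237 and 282 in TIGK control and 427, 462 and 549 in TIGK H2O2. In HaCaT they were 134, 79.6 and 144 without and 56.7, 51.3 and 27.8 with H2O2. The groups overlapped in neither line, and every TIGK library lay above every HaCaT library. PRDM1 rose by 0.85 ± 0.19 on the log2 scale in TIGK (SE, edgeR adjusted p = 0.00194) and fell by 1.41 ± 0.25 in HaCaT (edgeR adjusted p = 0.000147). The raw counts of the HaCaT H2O2 libraries were 51, 44 and 26, so counting error weighs most for this gene. The rise in TIGK missed the threshold without TIGK control replicate 2 (edgeR adjusted p = 0.0105) or TIGK H2O2 replicate 3 (0.0138).

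ZNF750 is a zinc finger regulator of late differentiation. It had 166, 192 and 176 normalized counts in TIGK control and 281, 255 and 323 in TIGK H2O2. HaCaT control had 252, 329 and 215, and HaCaT H2O2 had 155, 159 and 135. Untreated HaCaT libraries lay above untreated TIGK libraries, and after H2O2 they lay below. The response was 0.69 ± 0.16 (log2, SE) in TIGK (edgeR adjusted p = 0.00248) and -0.83 ± 0.16 in HaCaT (edgeR adjusted p = 0.000456). Without TIGK control replicate 1 or TIGK H2O2 replicate 3 the TIGK response missed the threshold, with edgeR adjusted p of 0.0124 and 0.0146.

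GRHL3, a grainyhead-like factor of the barrier, had 833, 757 and 701 normalized counts in TIGK control and 914, 1037 and 970.0 in TIGK H2O2. In HaCaT it had 409.6, 413 and 362 without and 325, 316 and 261 with H2O2. The 4 groups did not overlap, and the order was TIGK H2O2, TIGK control, HaCaT control, HaCaT H2O2. Its changes were smaller, at 0.35 ± 0.10 (log2, SE) in TIGK with an edgeR adjusted p of 0.00986, close to the threshold, and -0.40 ± 0.11 in HaCaT with 0.00593. The TIGK call was lost in 10 of 20 alternatives that left the limits unchanged and the HaCaT call in 4 of 20. Without TIGK control replicate 3 the TIGK edgeR adjusted p was 0.0528, the highest, and it also missed the threshold without TIGK control replicate 2 (0.0224), TIGK H2O2 replicate 1 (0.0140), 2 (0.0353) or 3 (0.0194), and HaCaT control replicate 1 (0.0124), 2 (0.0128) or 3 (0.0102). The HaCaT call was lost without HaCaT control replicate 1 (edgeR adjusted p = 0.0246) or 2 (0.0244) and HaCaT H2O2 replicate 3 (0.0375).

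Both lines moved the same way for GRHL2, the family member that holds the epithelial state in many tissues. GRHL2 had 1905, 2017 and 2208 normalized counts in TIGK control and 3349, 3596 and 3422 in TIGK H2O2, a rise of 0.76 ± 0.07 (log2, SE, edgeR adjusted p = 1.45e-07). In HaCaT, 1515, 1585 and 1468 became 2234, 2232 and 1919.7, a rise of 0.48 ± 0.07 (edgeR adjusted p = 2.81e-05). Neither line's groups overlapped, and GRHL2 kept both calls in all 20 alternatives that left the limits unchanged. Both rises lie below the alternative limit, an absolute log2 fold change over 1.

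OVOL1, a zinc finger repressor that acts at the start of differentiation, had 676, 595 and 597 normalized counts in TIGK control and 786, 1025 and 896 in TIGK H2O2. In HaCaT it had 462, 419 and 433 without and 539, 902 and 758 with H2O2. The rise was 0.54 ± 0.14 (log2, SE) in TIGK with an edgeR adjusted p of 0.00558, and 0.74 ± 0.14 in HaCaT with 0.000364. HaCaT H2O2 replicate 1 was the lowest of its group, yet above all HaCaT control libraries. The TIGK call was lost without TIGK control replicate 2 (edgeR adjusted p = 0.0196) or 3 (0.0219) and without TIGK H2O2 replicate 2 (0.0306) or 3 (0.0137).

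TP63 had 9913, 10439 and 10866 normalized counts in TIGK control and 8630.2, 8869.6 and 8796 in TIGK H2O2. In HaCaT control it had 19652, 18815 and 18436, and in HaCaT H2O2 13058, 12615 and 11302. The groups stood in the order HaCaT control, HaCaT H2O2, TIGK control, TIGK H2O2 without overlap. TP63 fell by 0.25 ± 0.06 on the log2 scale in TIGK (SE, edgeR adjusted p = 0.00261) and by 0.62 ± 0.06 in HaCaT (edgeR adjusted p = 1.18e-07). Without TIGK control replicate 2 or 3 the TIGK edgeR adjusted p was 0.0172 and 0.0146, and without TIGK H2O2 replicate 1, 2 or 3 it was 0.0145, 0.0157 and 0.0183. Counts are per gene, so the full-length and amino-terminally truncated forms of p63 were not separated.

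The other 3 factors did not pass the test in either line. TFAP2A ranged from 2438 to 3422 normalized counts over all 12 libraries, with responses of 0.11 (95% interval -0.03 to 0.24) in TIGK and -0.14 (-0.28 to -0.01) in HaCaT on the log2 scale. TFAP2C ranged from 1076 to 1332 in TIGK and from 2294 to 3109 in HaCaT, with responses of 0.07 (-0.10 to 0.24) and 0.27 (0.11 to 0.43), the latter with an edgeR adjusted p of 0.0114. GRHL1 ranged from 909 to 1061 in TIGK and from 261 to 379.8 in HaCaT, with responses of 0.08 (-0.15 to 0.31) and 0.01 (-0.25 to 0.27). TFAP2C in HaCaT passed without TIGK control replicate 3 (edgeR adjusted p = 0.0084), HaCaT control replicate 3 (0.00909) or HaCaT H2O2 replicate 3 (0.00115). It also passed without the filter on low counts (edgeR adjusted p = 0.00573).

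**Figure D3:**
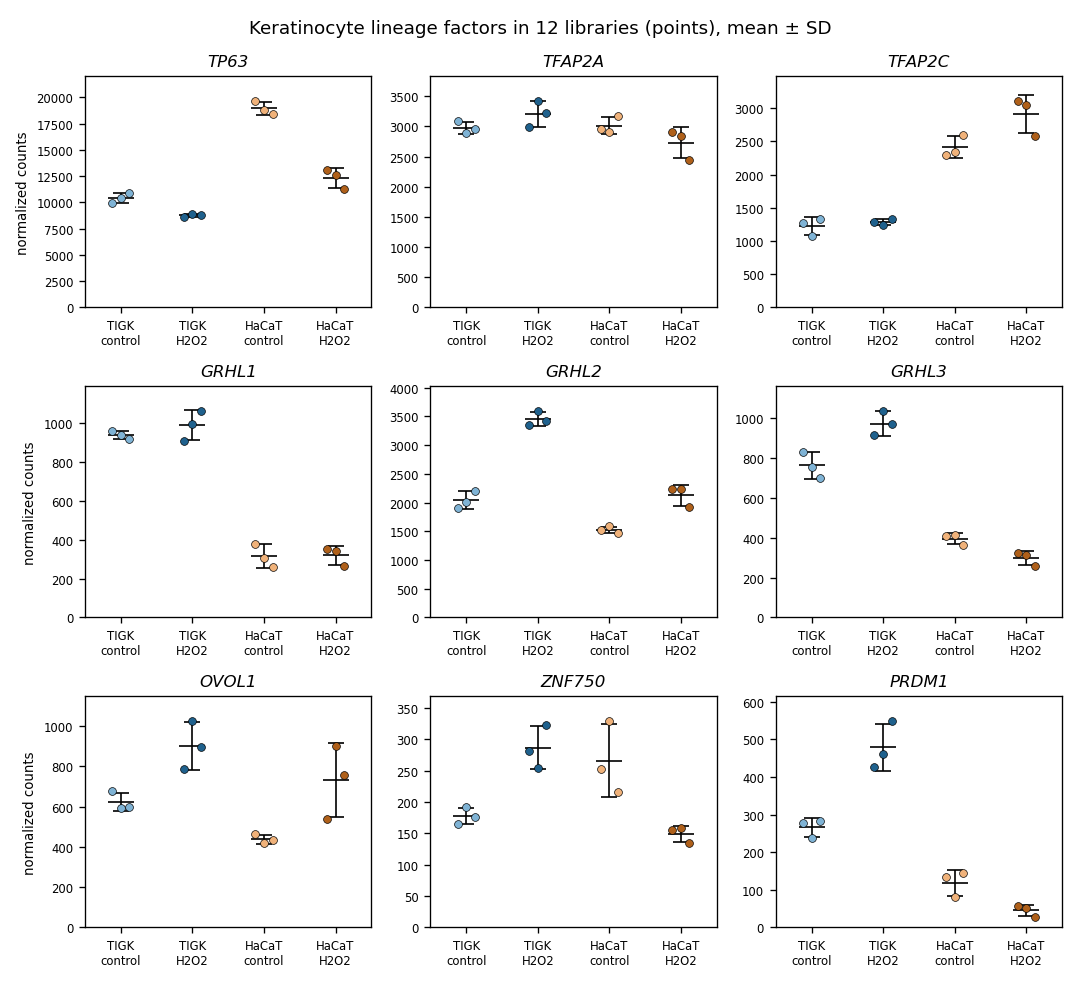
Normalized counts of the 9 factors in each of the 12 libraries (points), with the mean and SD of each group (bars), on axes that start at 0. GRHL3, ZNF750 and PRDM1 move up in TIGK and down in HaCaT.

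Of the HaCaT H2O2 libraries, replicate 3 was the lowest for 8 of the 9 factors, all but OVOL1. Without it the log2 fold change of PRDM1 in HaCaT was -1.15, past the threshold. In TIGK H2O2, replicate 1 was the lowest for 7 of 9. Leaving out single libraries moved the count of factors called in TIGK most. It fell from 6 to 1 without TIGK H2O2 replicate 3, to 2 without TIGK control replicate 2 and to 3 without TIGK control replicate 3 or TIGK H2O2 replicate 2. The share of all genes called in TIGK also fell in these fits, from 23.2% to 17.5%, 18.5%, 17.2% and 17.6%, in that order. The counts in HaCaT stayed between 5 and 7.

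The test of the difference of the responses, TIGK minus HaCaT, called 4 of the 9 factors, all higher in TIGK, against 5.30% of all genes tested (2.32% in that direction, 2.98% in the other). PRDM1 differed by 2.26 ± 0.31 on the log2 scale (SE, edgeR adjusted p = 9.95e-05), which ranked 219th among 16618 genes from the largest difference in that direction. ZNF750 differed by 1.52 ± 0.23 (edgeR adjusted p = 0.000225), GRHL3 by 0.75 ± 0.15 (0.0026) and TP63 by 0.37 ± 0.08 (0.00544). GRHL3, ZNF750 and PRDM1 kept this call in all 19 alternatives that left the limits unchanged. GRHL3, at 0.75, and TP63, at 0.37, lie below the alternative limit, an absolute log2 fold change over 1. The TP63 call was lost without TIGK control replicate 1 (edgeR adjusted p = 0.0183), TIGK H2O2 replicate 1 (0.0121) or HaCaT control replicate 1 (0.0209) or 2 (0.0150). The count of genes called in both responses with opposite signs was 78 of 16618 (0.469%), and 3 of the 9 factors were among them.

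The difference did not pass for the other 5. It was 0.27 for GRHL2 (95% interval 0.08 to 0.47, edgeR adjusted p = 0.083), 0.25 for TFAP2A (0.06 to 0.45, 0.108), 0.07 for GRHL1 (-0.27 to 0.41, 0.857), -0.20 for OVOL1 (-0.59 to 0.18, 0.569) and -0.20 for TFAP2C (-0.44 to 0.03, 0.298). These intervals are not adjusted for the number of genes.

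Each of the 3 factors with opposite responses overlaps a protein-coding gene on the other strand. TP63, TFAP2A, GRHL2 and OVOL1 overlap only antisense genes or pseudogenes there. Strand use in the counting is not given in the sources used here, so reads of such pairs may have been mixed. ATG5, an autophagy gene that overlaps PRDM1, rose in both lines, by 0.47 ± 0.08 in TIGK and 0.54 ± 0.08 in HaCaT (log2, SE, edgeR adjusted p = 0.000138 and 2.52e-05). STPG1, which overlaps GRHL3, also rose in both, by 0.42 ± 0.09 and 0.71 ± 0.09 (edgeR adjusted p = 0.0012 and 6.43e-06). The change of TBCD, a tubulin folding cofactor that overlaps ZNF750, was -0.14 ± 0.06 in TIGK and 0.01 ± 0.06 in HaCaT (edgeR adjusted p = 0.0506 and 0.898). The difference of responses did not pass for these 3 neighbours, at -0.07, -0.29 and -0.16. Mean raw counts over all libraries were 1741.5 for ATG5 and 236 for PRDM1, and 526 for STPG1 and 617 for GRHL3. They were 3347 for TBCD and 223 for ZNF750.

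The third comparison set untreated HaCaT against untreated TIGK. It shares its control libraries with the responses above. Of the 9 factors, 8 passed, 3 higher and 5 lower in HaCaT, against 59.9% of all genes tested (29.1% higher, 30.8% lower). The libraries did not overlap for 8 of 9, against 73.3% of genes. TP63 was higher in HaCaT by 0.87 ± 0.06 (log2, SE, edgeR adjusted p = 1.12e-10), TFAP2C by 0.97 ± 0.09 (5.55e-09) and ZNF750 by 0.58 ± 0.16 (0.00374). GRHL1, GRHL2 and GRHL3 were all lower in HaCaT, at -1.57 ± 0.12 (edgeR adjusted p = 1.44e-09), -0.42 ± 0.07 (3.1e-05) and -0.95 ± 0.10 (1.2e-07). PRDM1 (-1.15 ± 0.21, edgeR adjusted p = 6.45e-05) and OVOL1 (-0.51 ± 0.14, 0.00411) were also lower, and TFAP2A did not pass at 0.02 (95% interval -0.12 to 0.15).

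The ZNF750 call between untreated lines was lost without TIGK control replicate 1 (edgeR adjusted p = 0.0176) or 3 (0.0116) or HaCaT control replicate 2 (0.0373). That of OVOL1 was lost without TIGK control replicate 1 (edgeR adjusted p = 0.0220) or HaCaT control replicate 2 (0.0176) or 3 (0.0143).

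The fourth comparison set the lines against each other after H2O2, where 8 of 9 passed, 2 higher and 6 lower in HaCaT, against 60.0% of all genes (30.2% higher, 29.8% lower). Again, 8 of 9 did not overlap, against 71.3% of genes. TP63 (0.49 ± 0.06, log2, SE, edgeR adjusted p = 3.63e-07) and TFAP2C (1.18 ± 0.08, 3.41e-10) were higher in HaCaT. PRDM1 was lower in HaCaT, at -3.41 ± 0.23 (edgeR adjusted p = 1.51e-10), which is 10.6-fold, compared with 2.21-fold in untreated cells. GRHL3 was lower at -1.70 ± 0.11 (edgeR adjusted p = 4.16e-11), GRHL1 at -1.64 ± 0.13 (8.79e-10) and GRHL2 at -0.70 ± 0.07 (4.07e-08). ZNF750, higher in HaCaT before, was lower at -0.94 ± 0.16 (edgeR adjusted p = 4.28e-05). A call in both conditions with opposite signs was found for 63 of 16618 genes (0.379%), and for 1 of the 9 factors. TFAP2A passed at -0.23 ± 0.07 (edgeR adjusted p = 0.00597) and lost the call without TIGK H2O2 replicate 2 (0.0122) or HaCaT H2O2 replicate 3 (0.0336). The TFAP2A call was also lost with these groups compared alone (edgeR adjusted p = 0.0110). OVOL1, at -0.30 (95% interval -0.57 to -0.03, edgeR adjusted p = 0.0596), passed without HaCaT H2O2 replicate 2 (0.00346) or without the filter on low counts (0.00477).

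**Figure D4:**
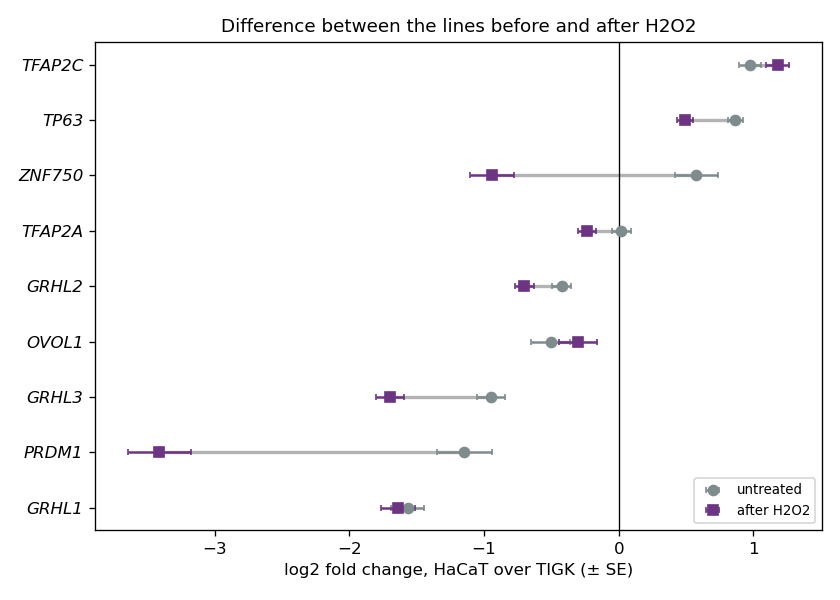
Log2 fold change of HaCaT over TIGK (± SE) for each factor in untreated cells (circles) and after H2O2 (squares). ZNF750 crosses 0, from 0.58 to -0.94, and PRDM1 moves from -1.15 to -3.41.

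The counts of gene lists below stand beside shares over all genes tested. In TIGK 10.2% of all genes rose and 12.9% fell, and in HaCaT 18.9% rose and 15.2% fell. Some lists lie near these shares. Among 7 of 10 paralogs of the factors that could be tested, 3 rose and 1 fell in each line, with 2 lower in HaCaT without HaCaT H2O2 replicate 3. TP73, which encodes a relative of p63, rose by 0.87 ± 0.16 in TIGK and 1.17 ± 0.17 in HaCaT (log2, SE, edgeR adjusted p = 0.000377 and 1.98e-05), opposite in sign to TP63. OVOL2 rose by 0.57 ± 0.11 in TIGK and 0.41 ± 0.11 in HaCaT (edgeR adjusted p = 0.000635 and 0.0054). TFCP2L1, of the grainyhead superfamily, fell by 0.35 ± 0.07 in TIGK and 0.40 ± 0.07 in HaCaT (edgeR adjusted p = 0.000433 and 0.000112). TFCP2, of the same superfamily, had 0 to 12 raw counts in the TIGK libraries and 1741 to 2474 in the HaCaT libraries.

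Of 20 other epidermal transcription factors, 4 rose and 5 fell in TIGK, and 3 rose and 8 fell in HaCaT. FOXN1, a differentiation factor, rose by 1.21 ± 0.14 in HaCaT (log2, SE, edgeR adjusted p = 2.4e-06), and its change in TIGK was 0.37 ± 0.13 (0.0379). RUNX1 fell in both, by 0.62 ± 0.07 and 0.89 ± 0.07 (edgeR adjusted p = 1.35e-06 and 1.02e-08), as did CEBPB, by 0.82 ± 0.07 and 0.70 ± 0.07 (8.93e-08 and 6.57e-07). SOX9 differed between the responses by 1.42 ± 0.12 (edgeR adjusted p = 4.14e-07), with means of 2283 and 3468 normalized counts in TIGK and 10475 and 5935 in HaCaT.

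Of 12 cofactors of the 9 factors, 3 rose and 4 fell in TIGK, and 5 rose and 5 fell in HaCaT. The upward count in HaCaT was 1 to 3 in most alternatives, among them 1 without HaCaT H2O2 replicate 2, 2 without HaCaT control replicate 2 or 3, TIGK control replicate 2 or TIGK H2O2 replicate 2 or 3, and 3 without HaCaT control replicate 1 or HaCaT H2O2 replicate 1. In TIGK 1 passed upward without TIGK control replicate 1 or TIGK H2O2 replicate 1, and 2 passed downward without TIGK control replicate 1 or 2 or TIGK H2O2 replicate 2. CITED2, a coactivator of AP-2, rose from 1757 to 12967 normalized counts in TIGK and from 848 to 3157 in HaCaT, by 2.88 ± 0.06 and 1.90 ± 0.06 (log2, SE, edgeR adjusted p = 1.95e-17 and 1.22e-14). KMT2D, a histone methyltransferase that works with p63 and ZNF750, fell by 0.88 ± 0.11 and 1.26 ± 0.11 (edgeR adjusted p = 4.99e-06 and 5.65e-08). Of 9 regulators of p63 protein, 2 rose and 1 fell in TIGK, and 1 rose and 3 fell in HaCaT. In TIGK 1 passed upward without TIGK control replicate 1 or 3 or TIGK H2O2 replicate 1 or 3, and in HaCaT 1 passed downward without HaCaT control replicate 3 and 2 upward without HaCaT H2O2 replicate 3. ITCH, a ubiquitin ligase that targets p63, fell by 0.55 ± 0.06 and 0.93 ± 0.06 (edgeR adjusted p = 3.96e-07 and 3.56e-10).

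Of 20 basal keratinocyte genes, 4 rose and 6 fell in TIGK, and 3 rose and 11 fell in HaCaT. The median response of the list was 0.01 (log2) in TIGK, compared with -0.40 in HaCaT, beside 0.01 and 0.04 over all genes. The basal keratin KRT14 rose in both, by 0.27 ± 0.06 and 0.33 ± 0.06 (log2, SE, edgeR adjusted p = 0.00178 and 0.00018). KRT15 fell by 1.04 ± 0.14 in HaCaT (edgeR adjusted p = 1.07e-05). Without TIGK H2O2 replicate 1, 2 basal genes passed upward in TIGK.

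Of 24 differentiation genes tested, 1 rose and 2 fell in TIGK, and 0 rose and 9 fell in HaCaT. The medians were -0.09 and -0.21, beside 0.01 and 0.04 over all genes. Upward in HaCaT, 3 had an unadjusted p under 0.05 in edgeR, 2 passed an adjusted p of 0.05, and DESeq2 called 0. Filaggrin, FLG, went from 19697 to 4892 normalized counts in HaCaT, a log2 change of -2.01 ± 0.15 (SE, edgeR adjusted p = 6.36e-09), and from 198 to 52.3 in TIGK, a change of -1.83 ± 0.27 (3.89e-05). Involucrin, IVL, fell by 1.21 ± 0.10 in HaCaT (edgeR adjusted p = 1.74e-08), and its difference of responses was 1.00 ± 0.13 (4.95e-05). The TIGK counts of this list were small, and 1 rather than 2 passed downward when TIGK control replicate 3, any 1 of the TIGK H2O2 libraries, HaCaT control replicate 1 or HaCaT H2O2 replicate 2 was left out, while 2 passed upward without TIGK control replicate 1 or 2.

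Of 16 epithelial junction and polarity genes, 6 rose and 4 fell in each line. CLDN4, a claudin, rose by 0.84 ± 0.10 in TIGK (log2, SE, edgeR adjusted p = 2.39e-06), and TJP1, a tight junction scaffold, fell by 0.68 ± 0.05 and 0.65 ± 0.05 (8.47e-09 and 1.66e-08). Without TIGK control replicate 2, TIGK H2O2 replicate 1 or TIGK H2O2 replicate 3, 3 passed upward in TIGK. Of 10 mesenchymal genes, 1 rose and 2 fell in TIGK and 1 rose and 1 fell in HaCaT. Without TIGK control replicate 3, 2 passed upward in HaCaT. SNAI2, which represses epithelial genes and is also made by basal keratinocytes, rose by 1.67 ± 0.08 in TIGK (edgeR adjusted p = 7.35e-12) and differed between the responses by 1.45 ± 0.11 (5.1e-08). In that difference 2 mesenchymal genes went the other way, SNAI1 by -2.91 ± 0.59 (edgeR adjusted p = 0.00335) and TWIST2 by -1.09 ± 0.19 (0.000725). SNAI1 had a mean of only 3.97 normalized counts in HaCaT control.

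**Figure D5:**
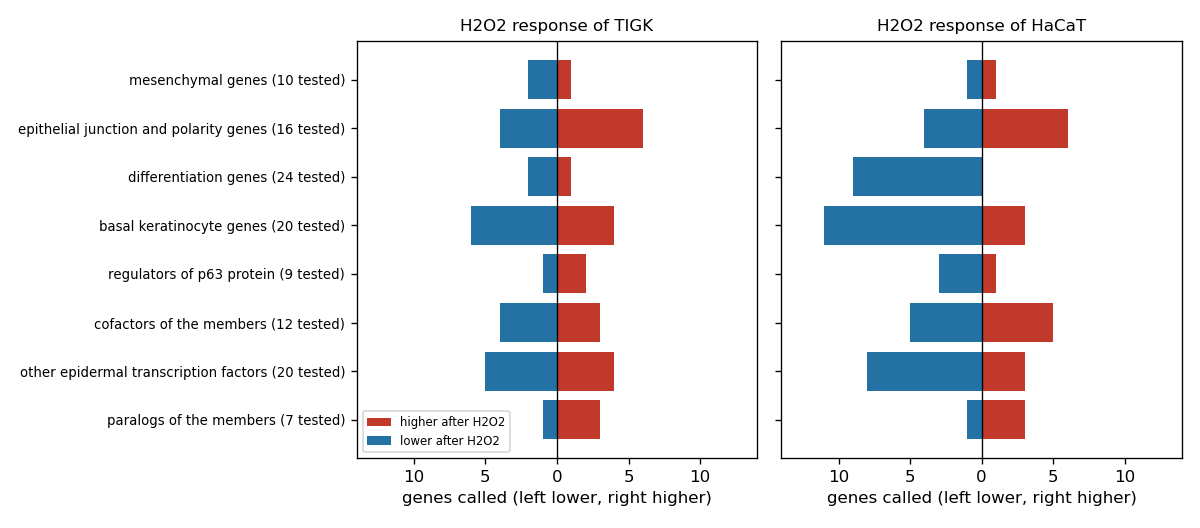
Number of genes called in each gene list after H2O2 in TIGK (left) and HaCaT (right), with lower genes to the left of 0 and higher genes to the right. Of the differentiation genes, 9 fell and 0 rose in HaCaT, and 2 fell and 1 rose in TIGK. Over all genes tested, 15.2% fell and 18.9% rose in HaCaT, and 12.9% fell and 10.2% rose in TIGK.

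The genes most like each factor were sought by the Euclidean distance over 3 log2 fold changes (both responses and HaCaT over TIGK untreated) among 11052 protein-coding genes with a mean of at least 100 normalized counts. TP63 was nearest to UCN2 (distance 0.0313), MAVS (0.042) and ZFYVE27 (0.0771). GRHL3 was nearest to TMEM80 (0.155), SPRY4 (0.187) and ZNF561 (0.188). ZNF750 had SLC25A45 (0.336), IRF2BPL (0.353) and SEMA7A (0.394). PRDM1 had no gene nearer than GLIPR1 (0.772), HCAR2 (0.898) and SAMD9 (0.972). For the other 5 factors the nearest gene lay between 0.0266 and 0.113.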

How the data were processed

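Human TIGK and HaCaT libraries were assigned to 4 groups by their labels. In the labels, the digit of the added compound changes between replicates, while the treatment protocol names H2O2. The authors deposited raw read counts per gene of GRCh38, and the study's methods name HISAT2 2.0.5, StringTie 1.3.3b and featureCounts 1.5.0-p3. Annotation release, strand use and treatment of multi-mapped reads are not given in the sources used here. Deposited tables of the study's own fold changes and p-values were not used.

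Differential expression was tested with edgeR 4.0.16 under R 4.3.3 (TMM, quasi-likelihood test, 1 mean per group over all 12 libraries). The filter was a mean of 10 raw counts over the libraries, p-values were adjusted after Benjamini and Hochberg over all 16618, and genes under 0.01 were called. SE values are those of the fit. The study used DESeq2, and DESeq2 1.42.0 was an alternative here. The fit was tested on simulated data. Library totals were 30426401 to 49034244 counts. Chi-square per degree of freedom between replicates was 4.45 to 28.2, so replicates differed by more than counting noise. Nothing in the labels says that replicates were separate cultures, so p-values measure only the spread between these samples, which may be technical.

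The 9 factors and the gene lists were chosen with earlier results of these data known. All factors are named. From each list and comparison, the 2 largest called rises and 2 largest falls whose higher group reached 100 normalized counts could be named. Some of these genes are not reported here. Those listed by the likeness measure are the 3 nearest genes. Promoter windows and motifs were chosen after the responses were seen. Alternatives were DESeq2, groups compared alone, other scalings, filters and limits, a replicate block, and leaving out each library. Counts out of 19 or 20 alternatives leave out the other limits. Plots were made in matplotlib 3.10.9 with Python 3.11.15.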

Additional observations from a re-analysis of the deposited data

Results flagged for a closer look

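The difference of the H2O2 responses of the lines, tested as an interaction in edgeR, set 4 factors apart (TIGK minus HaCaT, log2). It was 2.26 for PRDM1, 1.52 for ZNF750, 0.75 for GRHL3 and 0.37 for TP63. For PRDM1, ZNF750 and GRHL3 the responses had opposite signs, and for TP63 both were negative.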

How the results depend on the processing

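Of 891 values of the 9 factors under alternatives that left the limits unchanged, 824 kept direction and side of the threshold. Of the rest, 42 lost and 6 gained the call, and 19 changed sign. The latter were all differences that had not passed. For GRHL1 in HaCaT (0.01) they were -0.0046 with DESeq2, -0.026 with the groups alone, -0.0062 with RLE, -0.033 with upper quartile scaling, -0.034 without mitochondrial genes, -0.018 without a filter, -0.031 at a mean of 50 counts, and between -0.11 and 0.17 with single libraries left out. TFAP2A between untreated lines was -0.035 with upper quartile scaling and between -0.021 (without HaCaT control replicate 3) and 0.044 with single libraries left out. With single libraries left out, the difference of responses lay between -0.097 and 0.21 for GRHL1 and between -0.32 and 0.030 for OVOL1. Requiring an absolute log2 fold change over 1 left 0 factors in the TIGK response, 1 in the HaCaT response and 2 between untreated lines. It left 4 after H2O2 and 2 in the difference of responses. The share of all genes past this limit is not given here, so these counts cannot be read against a background. Leaving out single libraries gave 1 to 6, 5 to 7, 6 to 8, 7 to 9 and 3 to 4 factors in the same order, while 17.2% to 27.9%, 26.4% to 35.1%, 54.8% to 62.0%, 55.0% to 60.5% and 3.23% to 6.6% of all genes were called. Replicate numbers did not pair the samples (correlations of -0.12 to 0.03). With the replicate block, 6, 6, 8, 7 and 3 factors and 19.5%, 30.2%, 57.4%, 57.7% and 3.65% of all genes were called, with TP63 lost from the difference of responses (edgeR adjusted p = 0.0161) and TFAP2A after H2O2 (0.0124). Of 704 list counts in the responses, 623 stayed within 1.5 times. With the fold limit the largest counts were 4 basal and 3 differentiation genes lower in HaCaT, from 11 and 9. Basal genes higher in TIGK numbered 7 without a filter, and cofactors higher in HaCaT 1 with the groups alone, 2 with upper quartile scaling or without mitochondrial genes, and 3 with RLE, either other filter or the block. The other changed counts, over all alternatives but the fold limit, moved by at most 2 outside the library exclusions. The causes were not tested. With 3 libraries a group, replicate spread limits small changes, and for PRDM1 in HaCaT H2O2 so does depth.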
